A study of Saccharomyces cerevisiae with 45 samples.

Results

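The genes of the small ribosomal subunit proteins of Saccharomyces cerevisiae were taken as all genes whose annotated symbol is RPS followed by a number, with or without a final A or B. By this rule 52 of the 5449 genes on the arrays were members. They comprised 21 pairs with both an A and a B gene, 7 genes without a letter (RPS2, RPS3, RPS12, RPS13, RPS15, RPS20 and RPS31) and 3 genes of which 1 letter was measured (RPS4B, RPS6B and RPS30A). For genes read by more than 1 probe set, the brightest on average was used.

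Messenger RNA was measured on single-colour Affymetrix expression arrays in haploid MATa yeast of strain BY4147 carrying the alleles his3D1, leu2D0, met15D0 and ura3D0, all untreated apart from temperature and grown in the rich medium YPD. Cultures at 25 °C were moved to a water bath at a higher temperature and collected after set times. The unheated control of batch A863 had 3 arrays, as did each of the 37 °C groups at 1, 3, 5, 7, 10, 15 and 40 min of the same batch and the 37 °C group at 80 min of batch A705, which has no control of its own. The unheated control of batch A927 had 2 arrays, as did the 42 °C groups at 3, 5, 10 and 40 min of that batch and the 46 °C groups at 10 and 30 min of batch P230. All groups carry the same alleles, so no comparison below is one of genotype. The labels do not say whether replicates came from separate cultures, so the errors measure the spread between these arrays, which may be technical.

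Values were log2 intensities, fitted for 41 arrays in 16 groups with limma. A gene was called lower or higher when its Benjamini-Hochberg adjusted p over all 5449 genes was under 0.05 and its change was at least 2-fold, which is 1 on the log2 scale. Replicate arrays of these groups correlated at 0.9915 to 0.9994. The 4 arrays labelled 42 °C 1 and 80 min were left out by the members' rule, since replicates correlated at 0.6122 and 0.6195 there. The mRNA of HSP26, a small heat shock protein that served as a check of heating, rose by 8.25 at 37 °C 15 min, 8.88 at 42 °C 40 min and 7.74 at 46 °C 30 min on the log2 scale. The MATa genes STE2, MFA1, MFA2 and BAR1 had values of 9.99 or more on all 41 arrays. LEU2, MET17 (the current name of MET15) and URA3 stayed between 3.88 and 5.93, whereas HIS3 lay between 10.27 and 12.38, and where its probes lie relative to the his3D1 deletion was not examined. The genes of the other mating type were not all dim: SAG1 lay between 8.37 and 9.53, while STE3, MF(ALPHA)1 and MF(ALPHA)2 ranged from 4.15 to 8.45.

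The small subunit of the ribosome binds mRNA, decodes it with tRNA and joins the large subunit, which forms the peptide bonds. Growing yeast devotes much of its transcription to ribosomal protein genes, whose promoters are bound by Rap1, Fhl1, Ifh1 and Sfp1 under the control of growth signalling through TORC1 and protein kinase A, and these genes are known to be lowered together in many stresses. Most of them are kept as pairs from an ancient genome duplication, and the A and B genes encode identical or nearly identical proteins from separate promoters. The near identity also reaches the probes: the brightest probe set was specific to its gene by name for 38 members, shared between similar genes (names ending in _s_at) for 9 and partly shared (names ending in _x_at) for 5. A gene-specific probe set existed for 49 of the members, including both genes of all 21 pairs.

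At 25 °C these mRNAs were among the brightest on the arrays. The members' control means ran from 12.53 to 14.72 in batch A863 and from 12.71 to 14.90 in batch A927, and 42 and 44 of them lay within 1 log2 unit of the brightest value of their group. Changes of signals this close to the top of the scale can be understated, and levels of different genes were not compared because each is read by its own probe set. The normalization did not leave all arrays with one distribution: array medians were 10.20 to 10.24 in batch A863 and 9.85 to 9.86 in P230. A change here is relative to the other mRNAs of the same sample, and fewer cells and less mRNA per cell cannot be told apart. Across batches a change can also hold a shift of the whole table. The members were slightly brighter in the control of A927 than in that of A863, by a median of 0.16 against 0.03 for all genes, and none differed 2-fold (2.90% of all genes were lower by that rule and 0.606% higher).

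At 37 °C the 2-fold falls of small subunit mRNAs lay at 10 and 15 min. No member passed the 2-fold rule downward at 1, 3, 5 and 7 min, when 0.202%, 1.32%, 5.95% and 8.15% of all genes did. RPS9A alone passed it at 10 min (11.9% of all genes; 2 members without the array of replicate 2), 6 members at 15 min (14.3%) and none at 40 or 80 min (7.21% and 2.31%). Small shifts were more widespread. Without the 2-fold minimum 42 members were lower at 10 min and 49 at 15 min, against 39.4% and 39.7% of all genes. At 40 and 80 min 32 and 38 were lower (40.0% and 38.7%). The 80 min arrays are of batch A705, so time and batch cannot be told apart there. The members' median change was −0.17 at 10 min, −0.37 at 15 min, −0.10 at 40 min and −0.19 at 80 min on the log2 scale, while the median of all genes stayed between −0.03 and 0.06.

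**Figure D1:**
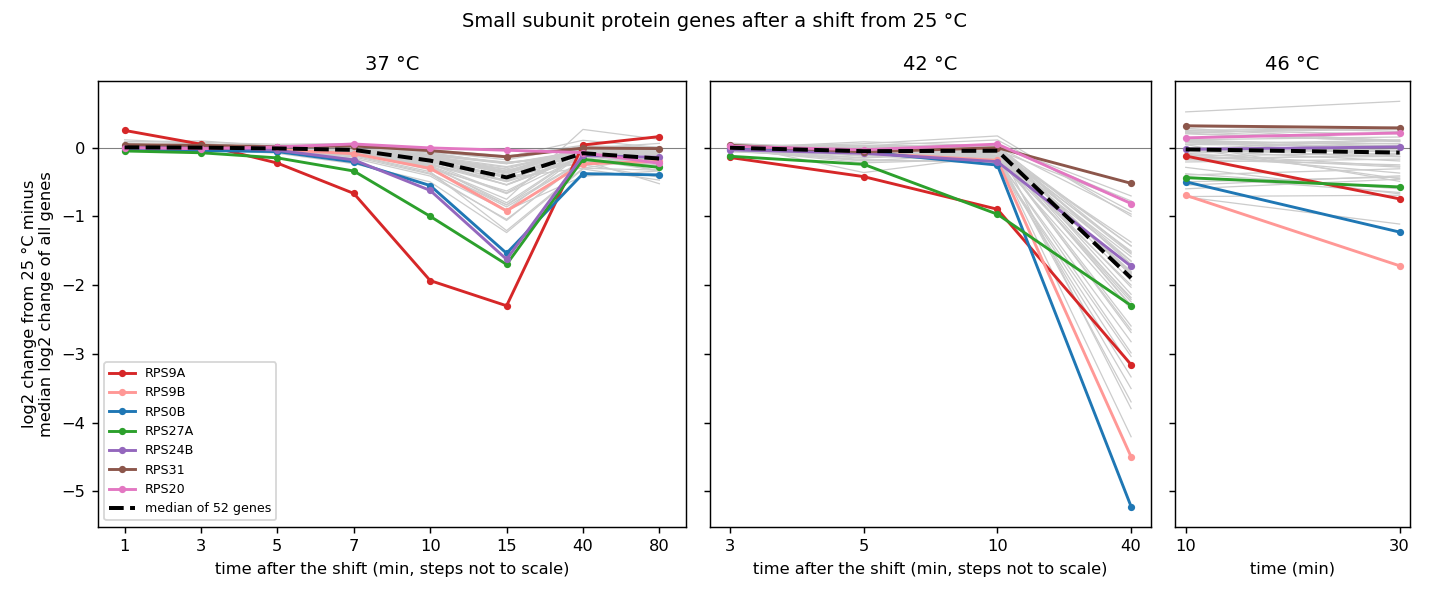
Log2 change from 25 °C minus the median change of all genes (vertical axis) against time in min (horizontal axis, steps not to scale) at 37, 42 and 46 °C. Grey lines are the 52 small subunit protein genes, coloured lines are named genes and the dashed line is the members' median. The dip at 37 °C is lowest at 15 min and deepest for RPS9A, whereas the fall at 42 °C lies between 10 and 40 min and reaches −5.21 for RPS0B before the median is subtracted.

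RPS9A, which encodes a protein near the decoding centre that affects the accuracy of translation, moved furthest at 37 °C. Its log2 values were 12.52, 12.55 and 12.52 at 25 °C, 10.61, 10.68 and 10.55 at 10 min, 10.24, 10.50 and 10.13 at 15 min and 12.57, 12.52 and 12.55 at 40 min. The arrays at 10 and 15 min lay far below all control arrays, and those at 40 min were back among them. RPS9A was at −1.91 ± 0.08 (SE, n = 3 against 3, limma adjusted p = 1.755e-20) at 10 min and at −2.24 ± 0.08 (adjusted p = 1.949e-22), or 4.72-fold lower, at 15 min. Before that, RPS9A was at −0.25 ± 0.08 (adjusted p = 0.006369) at 5 min and at −0.68 ± 0.08 (adjusted p = 2.797e-09) at 7 min, both under the 2-fold rule.

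RPS27A, for a zinc-binding protein of the subunit's body, was next in size at 10 min, at −0.98 ± 0.06, and was at −0.17 ± 0.06 (adjusted p = 0.0223) at 5 min. It read 14.01, 14.02 and 14.03 at 25 °C and 12.37, 12.39 and 12.39 at 15 min, a fall of 1.64 ± 0.06 (adjusted p = 7.266e-21). RPS24B went from 14.25, 14.26 and 14.24 to 12.78, 12.55 and 12.75, a fall of 1.56 ± 0.04 (adjusted p = 9.027e-25). In both genes the groups were separated by more than 1 log2 unit.

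RPS0B encodes a protein of the body that is needed to mature the small subunit rRNA. It read 14.33, 14.35 and 14.30 at 25 °C and 12.96, 12.73 and 12.87 at 15 min, and fell by 1.47 ± 0.05 (adjusted p = 6.641e-23). The remaining calls were RPS7B, which went from 13.93, 13.93 and 13.88 to 12.84, 12.58 and 12.81 (−1.17 ± 0.05, adjusted p = 2.896e-20), and RPS26B, for a protein at the mRNA exit channel that the chaperone Tsr2 escorts. RPS26B went from 14.43, 14.43 and 14.44 to 13.43, 13.06 and 13.38 (−1.14 ± 0.06, adjusted p = 5.506e-17). In these 3 genes the array labelled replicate 2 at 15 min was the lowest, and it stayed far below the controls. With the 4 left-out arrays in the fit RPS0B and RPS26B were no longer called (limma adjusted p = 0.1875 and 0.1351). Those arrays form groups of their own, so they left the changes as they were and altered only the estimated spread. RPS16B, at −0.996, lay just outside the 2-fold rule.

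Other members hardly moved. RPS20, for a protein of the subunit's head, read 14.51, 14.53 and 14.53 at 25 °C and 14.55, 14.56 and 14.53 at 37 °C 15 min (change 0.03 ± 0.03, adjusted p = 0.4843). RPS12, also of the head, read 14.54, 14.56 and 14.57 against 14.48, 14.50 and 14.53 (−0.06 ± 0.04, adjusted p = 0.1545). RPS30A read 14.27, 14.32 and 14.29 against 14.12, 14.35 and 14.23 (−0.06 ± 0.07, adjusted p = 0.4256). For these 3 genes the ranges of both groups touched or nearly touched. RPS31, whose product is made as a fusion with ubiquitin at its start, read 14.60, 14.61 and 14.62 against 14.53, 14.54 and 14.55, a separation of the groups that amounted to −0.07 ± 0.03 (adjusted p = 0.04206).

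The return from 15 to 40 min at 37 °C was measured within the batch. In that step 4 members rose at least 2-fold (9.12% of all genes did), and 41 rose without the minimum (34.6% of all genes). RPS9A rose by 2.26 ± 0.08 on the log2 scale, RPS27A by 1.45 ± 0.06, RPS24B by 1.43 ± 0.04 and RPS0B by 1.07 ± 0.05. At 40 min RPS9A was 0.02 ± 0.08 from its control, whereas RPS0B was still at −0.40 ± 0.05 and RPS7B at −0.33 ± 0.05. RPS14B rose by 0.93 ± 0.04 in that step and went past its control. It read 13.42, 13.41 and 13.40 at 25 °C, 12.73, 12.75 and 12.70 at 15 min and 13.74, 13.61 and 13.62 at 40 min. The last was 0.24 ± 0.04 above the control (limma adjusted p = 8.789e-06) and below the 2-fold rule. RPS23A, on its shared probe set, was also above its control at 40 min, by 0.09 ± 0.03. In yeast the Rps14 protein is known to bind the RPS14B transcript and limit its splicing. At 80 min, in another batch, the members ranged from −0.55 ± 0.06 for RPS1A to 0.13 ± 0.08 for RPS9A.

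At 42 °C nearly the whole set fell between 10 and 40 min. No member was 2-fold lower at 3 or 5 min (3.82% and 6.83% of all genes) and 1 was at 10 min (12.5%), a count that became 2 without replicate 2 and 0 against the A863 control. At 40 min 44 of 52 were lower by at least 2-fold (22.4% of all genes) and none higher (23.3%). Without the minimum all 52 were lower at 40 min, against 42.9% of all genes. The members' median change was −0.12 at 10 min and −1.88 at 40 min, when the median of all genes was 0.01. The step from 10 to 40 min took 45 members at least 2-fold lower (13.0% of all genes), with a median of −1.79 against 0.15 for all genes. The members also spread out, from an SD of 0.42 between their means at 25 °C to 1.22 at 42 °C 40 min, when 1 of them remained within 1 log2 unit of the brightest value.

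**Figure D2:**
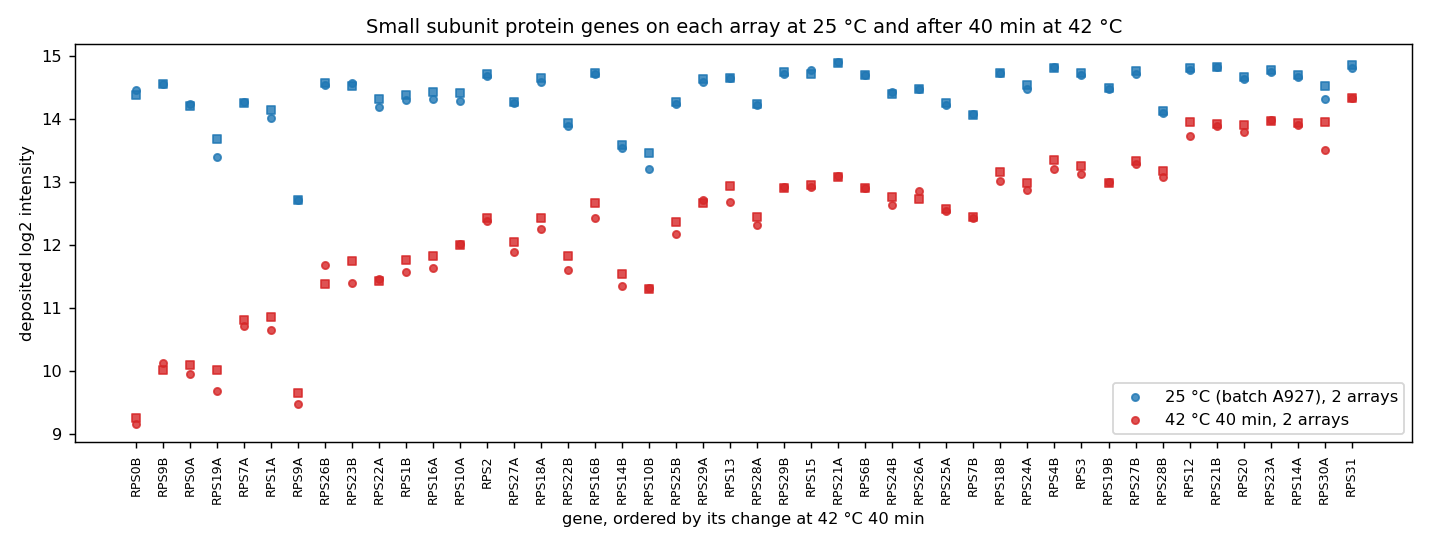
Deposited log2 intensity (vertical axis) of 46 of the genes (horizontal axis, ordered by change) on the 2 control arrays of batch A927 (blue) and the 2 arrays of 42 °C 40 min (red), with circles for replicate 1 and squares for replicate 2. Every red pair lies below its blue pair, from RPS0B at the left with a fall of 5.21 to RPS31 at the right with a fall of 0.51.

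The 3 largest falls at 42 °C 40 min were those of RPS0B, RPS9B and RPS0A, whose proteins lie in the body and platform. RPS0B read 14.46 and 14.39 at 25 °C and 9.16 and 9.27 at 40 min, a fall of 5.21 ± 0.06 (n = 2 against 2, limma adjusted p = 1.671e-34), or 37.0-fold. RPS9B read 14.56 and 14.56 against 10.13 and 10.02, a fall of 4.49 ± 0.04 (adjusted p = 7.429e-36). RPS0A read 14.25 and 14.21 against 9.96 and 10.10, a fall of 4.19 ± 0.05 (adjusted p = 1.878e-33). In each the replicates lay close together and the groups were more than 4 log2 units apart.

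RPS19A encodes a protein of the head whose human counterpart is mutated in Diamond-Blackfan anaemia. It read 13.40 and 13.69 against 9.69 and 10.02 (−3.69 ± 0.12, adjusted p = 1.063e-23), and its replicates lay further apart than those of RPS0B, RPS9B and RPS0A. RPS7A, for a protein of the body that is ubiquitinated in yeast, read 14.27 and 14.25 against 10.72 and 10.82 (−3.49 ± 0.07, adjusted p = 2.711e-28).

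The members that fell less than 2-fold at 42 °C 40 min were RPS28B, RPS12, RPS21B, RPS20, RPS23A, RPS14A, RPS30A and RPS31, with changes from −0.98 to −0.51. RPS31 read 14.82 and 14.87 at 25 °C and 14.34 and 14.34 at 40 min (−0.51 ± 0.04, adjusted p = 1.867e-13). RPS30A, whose protein is also of the body, read 14.32 and 14.53 against 13.51 and 13.95 (−0.69 ± 0.09, adjusted p = 1.249e-08), on a shared probe set. RPS14A, for a protein of the platform, read 14.67 and 14.70 against 13.91 and 13.94 (−0.76 ± 0.05, adjusted p = 4.477e-16). The groups did not overlap in any of these. RPS20 and RPS12, which did not pass the test at 37 °C 15 min, were at −0.80 ± 0.04 and −0.95 ± 0.04.

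RPS23A, for a protein that helps keep decoding accurate, shows how the probe set bears on such a value. On its brightest, shared probe set it read 14.76 and 14.79 against 14.00 and 13.98 (−0.79 ± 0.04), while its gene-specific probe set gave −2.69. Of 7 members with both a shared and a gene-specific probe set, 6 fell more on the gene-specific one at 42 °C 40 min, with a median difference of −1.002 between the 2 probe sets. RPS18B was at −1.64 on the shared and −3.34 on the gene-specific one. RPS24A was the exception, at −1.57 on the shared and −1.12 on the gene-specific one. For the 6 members with a partly shared probe set the median difference was −0.13, with a range from −0.63 for RPS10A to 0.03.

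**Figure D3:**
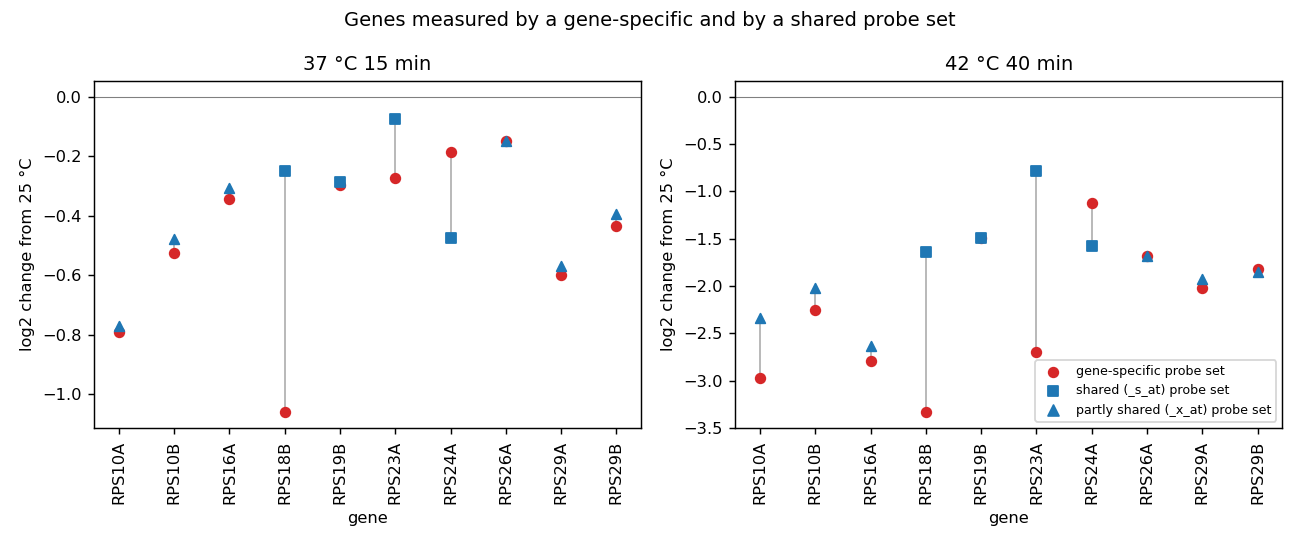
Log2 change from 25 °C (vertical axis) of 10 small subunit protein genes with more than 1 probe set (horizontal axis) at 37 °C 15 min and 42 °C 40 min. Red circles are gene-specific, blue squares shared and blue triangles partly shared probe sets of the same gene. RPS23A and RPS18B differ by over 1 log2 unit between their probe sets at 42 °C, while the partly shared sets mostly lie closer to the gene-specific ones.

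The members were also grouped by the position of their protein in the subunit. Of the measured genes for proteins of the head, 17 of 21 were lower at 42 °C 40 min (22.4% of all genes) with a median of −1.84. Of those of the body and platform, 27 of 31 were lower with a median of −2.12. At 37 °C 15 min, on the brightest probe sets, no head gene passed the 2-fold rule. Of the 31 body and platform genes 6 did, beside 14.3% of all genes. The head gene RPS18B was at −0.25 on its shared probe set but at −1.06, past the rule, on its gene-specific one. RPS16B, also of the head, lay just outside the rule at −0.996. The medians of the 2 regions were −0.34 and −0.48. The difference between the regions was not tested. Of the 7 genes without a letter, 4 were lower at 42 °C 40 min with a median of −1.51, and of the 45 others 40 were lower with a median of −2.02. RPS2 and RPS3, whose proteins line the entry channel of the mRNA, were at −2.30 ± 0.05 and −1.51 ± 0.04. RPS13 and RPS15 were at −1.84 ± 0.05 and −1.81 ± 0.04. At 37 °C 15 min all 7 lay between −0.38 and 0.03, and the 45 others between −2.24 and −0.06.

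A measure of RNA integrity moved with this fall. The signal of ACT1 probe sets near the 3' end minus that near the 5' end was 0.75 ± 0.09 (SD, n = 2) in the A927 control and 1.33 ± 0.07 at 42 °C 40 min, the highest of the 16 groups. It was 0.52 ± 0.01 (SD, n = 3) in the A863 control and 0.58 ± 0.07 at 37 °C 15 min. Its part in the falls was not tested.

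The response at 42 °C was set against that at 37 °C at the times both have, each relative to its own control. At 3, 5 and 10 min no member's response was 2-fold lower at 42 °C (0.257%, 0.440% and 4.97% of all genes). At 40 min the response at 42 °C was lower for 44 members (19.6% of all genes), with a median difference of −1.81 against −0.01 for all genes. With the 4 left-out arrays in the fit, which altered only the estimated spread, the count was 29. Across the 52 members the changes at 37 °C 15 min and 42 °C 40 min, which have separate controls, were related with a Pearson r of 0.60 and a Spearman rho of 0.76. With gene-specific probe sets over 49 members these were 0.56 and 0.69. The points share the probe sets and the closeness to the top of the scale, so this is a description across genes.

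At 46 °C the members' fall was small against a shift of the whole table. The median of all genes was −0.39 at 10 min and −0.38 at 30 min relative to the mean of both controls, and the members' medians were −0.42 and −0.45. By the unadjusted values 3 members were lower at 10 min (17.6% of all genes) and 7 at 30 min (20.8%). After each array's median was subtracted, no member was lower 2-fold at 10 min (8.77% of all genes) and 3 were at 30 min (11.2%): RPS9B, RPS0B and RPS19A. The members' medians were then −0.07 and −0.10, with 22 and 17 of the 52 above 0. The 46 °C arrays are the only ones of their batch, so temperature and batch cannot be told apart here.

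RPS9B read 12.49 and 12.33 at 46 °C 30 min against 14.42 to 14.56 on the 5 control arrays. Relative to the shift of the whole table it was at −1.75 ± 0.04 (adjusted p = 2.732e-27), RPS0B at −1.26 ± 0.05 and RPS19A at −1.14 ± 0.10. All 3 were also among the 5 largest falls at 42 °C 40 min. Between 10 and 30 min at 46 °C, a step within the batch, RPS9B alone passed the 2-fold rule (0.239% of all genes), with −1.01 ± 0.04 (adjusted p = 1.476e-16), and without the array of replicate 2 at 30 min none did. RPS28B, whose transcript is bound by its own protein and decapped in yeast, was at 0.30 ± 0.05 against the mean of both controls at 30 min before any subtraction, but the controls themselves differed by 0.49 ± 0.06 for this gene and its values of 14.08 and 14.26 lay about the 14.11 and 14.13 of the A927 control.

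The A and B genes of a pair were compared by the change of A minus the change of B on the same arrays, fitted for all 52 standard A/B pairs on the array and adjusted over them. A pair was called unequal at an adjusted p under 0.05 and a difference of at least 1 on the log2 scale. At 37 °C 15 min 3 of the 21 small subunit pairs were unequal (21.2% of all 52 pairs) and at 42 °C 40 min 10 were (53.8%). With gene-specific probe sets, which leave 51 pairs, the counts were 3 (21.6%) and 8 (45.1%). Small inequality was general: by the adjusted p alone all 21 pairs differed at both times, with either choice of probe set. So did 49 of all 52 pairs at both times, and 48 and 46 of the 51 with gene-specific probe sets. Across members the 25 °C level and the change had a Spearman rho of 0.46 at 37 °C 15 min and 0.47 at 42 °C 40 min. On gene-specific probe sets these were 0.37 and 0.36, so dimmer members tended to fall more. The part of the closeness to the top of the scale in the pair differences was not tested. Values of pairs below are from the gene-specific probe sets unless stated.

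**Figure D4:**
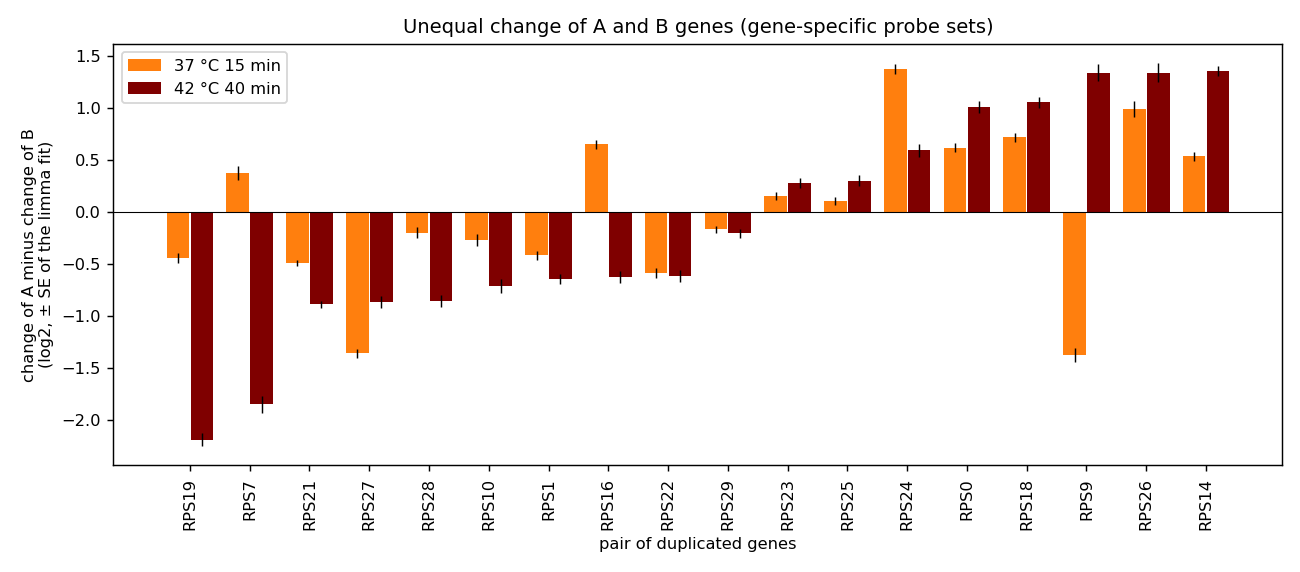
Change of the A gene minus change of the B gene (vertical axis, log2, bars with the SE of the limma fit) for 18 small subunit pairs (horizontal axis, ordered by the 42 °C value) on gene-specific probe sets. Orange bars are 37 °C 15 min and dark red bars 42 °C 40 min. Below 0 the A gene fell more. RPS9, RPS7 and RPS16 have bars of clearly opposite direction.

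At 37 °C 15 min the unequal pairs were RPS9, RPS27 and RPS24. RPS9B read 14.42, 14.48 and 14.47 at 25 °C and 13.57, 13.61 and 13.61 at 15 min, so RPS9A fell more by 1.38 ± 0.07 on the log2 scale (adjusted p = 1.367e-19). RPS27B read 14.56, 14.57 and 14.55 against 14.28, 14.29 and 14.29, and RPS27A fell more by 1.36 ± 0.05 (adjusted p = 2.934e-24). In the RPS24 pair the B gene fell more: the A gene changed by −0.19 and the B gene by −1.56, a difference of 1.38 ± 0.05 (adjusted p = 5.851e-24). RPS26 lay just below the rule at 0.996 with the B gene lower. RPS9 was already unequal at 10 min, at −1.63 ± 0.07, as 1 of 21 pairs (7.84% of all pairs). All 3 pairs drew together again between 15 and 40 min, by 1.65 ± 0.07 for RPS9, 1.18 ± 0.05 for RPS27 and 1.27 ± 0.05 for RPS24 (3 of 21 pairs, 17.6% of all).

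At 42 °C 40 min 7 pairs were unequal on both choices of probe set. The A gene fell more in RPS19, by 2.19 ± 0.06 (adjusted p = 2.575e-26), and in RPS7, by 1.85 ± 0.08 (adjusted p = 8.036e-21). The B gene fell more by 1.36 ± 0.05 in RPS14, 1.34 ± 0.09 in RPS26, 1.34 ± 0.08 in RPS9 and 1.02 ± 0.06 in RPS0. RPS19B read 14.48 and 14.50 at 25 °C and 13.00 and 12.99 at 40 min, so the change of −3.69 in the A gene stood beside −1.50 in B. RPS14 showed the reverse, with RPS14B at 13.55 and 13.60 against 11.36 and 11.55, a change of −2.12 beside −0.76 in RPS14A. RPS26A read 14.49 and 14.49 against 12.86 and 12.74, while RPS26B went from 14.55 and 14.58 to 11.68 and 11.39.

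For 4 pairs the call depended on the probe set. On the brightest probe sets RPS23 (2.19) was unequal at 42 °C 40 min, and on gene-specific ones its difference was 0.28. RPS23B, at 14.58 and 14.53 against 11.41 and 11.75, fell further on a probe set of its own than RPS23A on the shared one. RPS18, for a protein of the head that contacts the large subunit, turned from −0.64 to 1.06.

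RPS9 and RPS7 changed which gene fell more. RPS9A was at −2.24 and RPS9B at −0.86 at 37 °C 15 min, against −3.15 and −4.49 at 42 °C 40 min. RPS9A read 12.71 and 12.72 at 25 °C in batch A927, 11.65 and 11.85 at 42 °C 10 min and 9.48 and 9.66 at 40 min. RPS9B read 14.29 and 14.32 at 10 min, so the A gene was ahead by 0.71 ± 0.08 at that time (adjusted p = 6.161e-09). From 10 to 40 min RPS9B then fell more than RPS9A by 2.05 ± 0.08 (adjusted p = 3.716e-22). At 46 °C 30 min RPS9B was again the lower of the pair, by 0.97 ± 0.07, just below the rule.

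In RPS7 the B gene fell more at 37 °C 15 min, −1.17 against −0.80 for A, and the A gene at 42 °C 40 min, −3.49 against −1.64. RPS7A read 14.14, 14.16 and 14.15 at 25 °C and 13.40, 13.34 and 13.32 at 37 °C 15 min, and RPS7B read 14.08 and 14.07 at 25 °C and 12.43 and 12.44 at 42 °C 40 min. The difference between the strongest state at each temperature, a comparison added after the values were seen, was 2.72 ± 0.11 for RPS9 (adjusted p = 3.251e-22), −2.23 ± 0.11 for RPS7 (adjusted p = 1.748e-19) and −1.28 ± 0.07 for RPS16 (adjusted p = 1.045e-17). RPS19 also passed the rule, and in all 5 of 21 pairs did (23.5% of all pairs). In 17 of the 21 pairs the same gene fell more in both states.

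**Figure D5:**
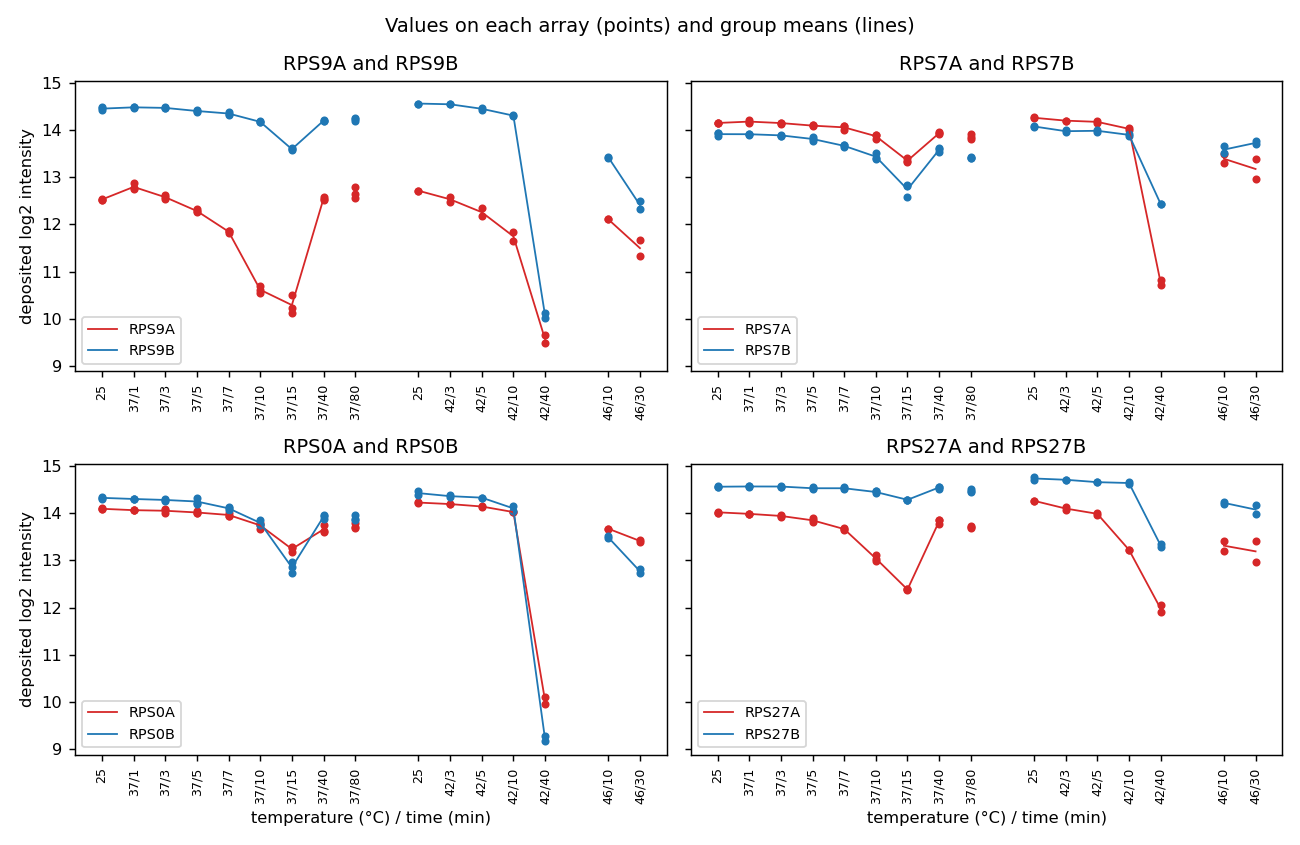
Deposited log2 intensity (vertical axis) of RPS9, RPS7, RPS0 and RPS27 A genes (red) and B genes (blue) on every array (points), with group means as lines, against temperature in °C and time in min (horizontal axis). RPS9A dips at 37 °C 15 min while RPS9B falls past 4 log2 units at 42 °C 40 min, and RPS27A separates from RPS27B at 37 °C 15 min. Heights of A and B are not comparable because their probe sets differ.

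RPS27 kept its direction but not its course. At 42 °C 10 min RPS27A was the 1 member past the 2-fold rule, at 13.23 and 13.22 against 14.26 and 14.27 at 25 °C (−1.04 ± 0.08, adjusted p = 2.924e-13), when RPS27B read 14.65 and 14.63 against 14.71 and 14.76. At 40 min both had fallen, to 11.90 and 12.05 for A and 13.29 and 13.35 for B, and the difference was −0.87 ± 0.06. RPS24 was 0.59 ± 0.06 apart at 42 °C 40 min, with A at −1.12 and B at −1.71, less than its 1.38 at 37 °C 15 min. At 46 °C 30 min RPS19 was unequal on the brightest probe sets (−1.20 ± 0.09, adjusted p = 5.04e-14, 13.5% of all pairs) and at −0.997 ± 0.05 on gene-specific ones, just short of the rule.

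The 76 genes of large subunit proteins had these counts: 9 were lower at 37 °C 15 min (14.3% of all genes) with a median of −0.39, 70 at 42 °C 40 min (22.4%) with a median of −2.25 and 15 at 46 °C 30 min (20.8%) with a median of −0.60. After each array's median was subtracted, 6 were lower at 46 °C 30 min (11.2% of all genes) with a median of −0.25. Of the 20 mitochondrial small subunit genes, whose ribosome translates the mitochondrial genome, 0, 3 and 8 were lower, with medians of 0.21, −0.22 and −0.91, and after the subtraction 5 were lower at 46 °C 30 min with a median of −0.56. Asc1 and Stm1 bind the small subunit without bearing an RPS name. ASC1 was at −0.32, −1.44 and −0.34 and STM1 at −0.16, −1.76 and −0.52, so both were called at 42 °C 40 min alone.

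Most genes for late maturation of the small subunit were already lower at 37 °C 10 min, 14 of 16 (11.9% of all genes). RPS9A alone was lower then among the small subunit protein genes. The counts were 14 at 37 °C 15 min (14.3% of all genes, median −3.00) and 14 at 42 °C 40 min (22.4% of all genes, median −4.06). TSR1 was at −6.16 ± 0.07 and −6.12 ± 0.08 in the last 2 states and ENP1 at −5.18 ± 0.09 and −5.74 ± 0.12. TSR2, the chaperone gene for Rps26, was at −3.13 ± 0.10 and −5.11 ± 0.12. The exceptions were YAR1 and HRR25. YAR1, for the chaperone of Rps3, was at 0.68 ± 0.07 and 1.93 ± 0.08, the latter called higher, and HRR25, for a casein kinase, was at −0.04 ± 0.07 and 0.26 ± 0.08.

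Among 12 genes listed with the regulation of ribosomal protein transcription, 4 were lower (14.3% of all genes) and 1 higher at 37 °C 15 min. At 42 °C 40 min 5 were lower (22.4% of all genes) and 1 higher (23.3%). The list included UTP22 and RRP7, and UTP22 was among the lower genes in both states. IFH1, the coactivator at these promoters, was at −1.84 ± 0.08 and −1.84 ± 0.09. FHL1, which recruits it, was at −0.80 ± 0.09 and −1.39 ± 0.11, and SCH9, a kinase downstream of TORC1, at −1.13 ± 0.08 and −1.84 ± 0.10. The TOD6 gene, for a repressor of ribosome assembly factors, was at −5.52 ± 0.13 and −3.60 ± 0.16. STB3, for a repressor at promoters of ribosome biogenesis genes, was the 1 higher, at 1.13 ± 0.07 and 2.02 ± 0.09. RAP1 and HMO1 were not called in either state. At 46 °C 30 min they were at −1.22 ± 0.05 and −1.05 ± 0.07, and at −0.87 ± 0.05 and −0.70 ± 0.07, under the 2-fold rule, after each array's median was subtracted. CRF1, a corepressor of these genes, was higher there at 2.36 ± 0.10, and at 2.71 ± 0.10 after the subtraction.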

How the data were processed

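The authors deposited log2 intensities made by RMA with affy, according to the submitters' processing notes, with versions not given in the sources used here. Array medians were 10.20 to 10.26 in batches A863 and A705, 10.12 to 10.20 in A927 and A961 and 9.85 to 9.86 in P230, so not all arrays share 1 distribution. RNA was extracted on a column kit and labelled from the 3' end, per the labels' protocols. The table holds 5900 probe sets on 45 arrays, of which 5498 carry 1 symbol, 0 carry several and 402 carry none, including 137 controls. All 5498 matched the yeast reference annotation and 12 symbols were updated. The number of arrays per group limits the precision. No 2 arrays were identical. One mean per group was fitted with limma 3.58.1 in R 4.3.3 with 25 residual degrees of freedom and two-sided tests. Each 37 °C time was compared with the A863 control, each 42 °C time with the A927 control and each 46 °C time with the mean of both. Pairs were tested on A minus B per array. Both were tested on simulated data. The members, lists and comparisons were chosen with earlier results of these data known. All members entered every fit and count, but some are not reported singly here; values per array are given for the 6 largest falls and 4 smallest falls at 37 °C 15 min and 42 °C 40 min and for pairs unequal against 25 °C, and of other lists up to 4 called genes per comparison or any gene of a list of up to 16. Alternatives covered normalization, controls, filters, probe sets, weights, the replicate block and leaving out each array.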

Additional observations from a re-analysis of the deposited data

Results flagged for a closer look

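The response at 42 °C differed from that at 37 °C at 40 min for 44 small subunit protein genes, by a contrast within 1 fit in which each temperature was set against its own control. All 44 were lower at 42 °C, by a median of −1.81 over the 52 members. The batches also differ between the temperatures, so temperature and batch cannot be told apart in this difference.

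The change of A minus B differed between the temperatures at 40 min for 10 of the 21 pairs by the same kind of contrast, beside 23 of all 52 pairs. With gene-specific probe sets it differed for 9 of the 21 pairs, beside 20 of all 51.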

How the results depend on the processing

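Of the counts of members or pairs recomputed under other settings, 650 stayed within 1.5 times the reported count and 55 did not. Apart from the fit with the 4 left-out arrays, the cause of those shifts was not tested. With the 4 arrays labelled 42 °C 1 and 80 min in the fit, the estimated spread differed and the changes did not. The response difference at 40 min then took in 29 members. In that fit 0 members were lower at 46 °C 10 min, 2 at 46 °C 30 min and 0 in the 46 °C step. RPS0B and RPS26B at 37 °C 15 min were no longer called (limma adjusted p = 0.1875 and 0.1351). Subtracting each array's median left 0 members lower at 42 °C 10 min, 0 at 46 °C 10 min and 3 at 46 °C 30 min, and 1 was higher in the 10 min difference. Quantile normalization of all arrays gave 2 lower at 37 °C 10 min, 0 at 46 °C 10 min and 3 at 46 °C 30 min. The other 25 °C control gave 2 lower at 37 °C 10 min and 0 at 42 °C 10 min, turned RPS20 at 37 °C 15 min to −0.11 (adjusted p = 0.0089) and the members' median at 42 °C 10 min to 0.05. Against the A863 control alone 1 pair was unequal at 46 °C 10 min and 3 at 30 min, and against the A927 control alone 5 members were lower at 46 °C 10 min. Gene-specific probe sets, added after seeing the data, gave 5 members lower at 46 °C 10 min and 0 unequal pairs at 30 min.

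Without the 2-fold minimum, members lower numbered 2 at 37 °C 5 min, 12 at 7 min, 42 at 10 min and 49 at 15 min. At 40 and 80 min 32 and 38 were lower, and 1 was higher at 1 min and 2 at 40 min. Of all genes 39.4%, 39.7%, 40.0% and 38.7% were lower at 10, 15, 40 and 80 min. At 42 °C the members lower numbered 15 at 5 min and 30 at 10 min. At 46 °C they were 50 and 51, with 1 higher at each time, in values that hold the shift of the whole table. After each array's median was subtracted, 23 were lower and 13 higher at 10 min, and 26 lower and 10 higher at 30 min. In the response differences 1 was lower at 5 min and 7 higher at 10 min. In the steps 41 were higher and 1 lower at 37 °C, and 18 lower and 3 higher at 46 °C. The other member counts in this paragraph stand without the share of all genes, so they show no trait of the members. Unequal pairs without a minimum numbered 1, 2, 5 and 15 at 37 °C 1, 5, 7 and 10 min. They numbered 21, 12 and 15 at 15, 40 and 80 min. Over all 52 pairs the counts at these times were 2, 8, 16, 35, 49, 32 and 35. At 42 °C 5, 10 and 40 min 3, 9 and 21 small subunit pairs were unequal, beside 10, 24 and 49 of all pairs. At 46 °C 16 and 17 were, beside 40 and 41. In the differences at 10 and 40 min 3 and 20 were, beside 8 and 48. In the steps at 37, 42 and 46 °C 19, 19 and 10 were, beside 45, 47 and 31.

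Leaving out each array in turn gave these ranges of members lower: 1 to 2 at 37 °C 10 min, 6 to 7 at 37 °C 15 min, 1 to 2 at 42 °C 10 min, 44 to 46 at 42 °C 40 min, 2 to 5 at 46 °C 10 min, 6 to 8 at 46 °C 30 min, 44 to 45 in the 40 min difference, 45 to 46 in the 42 °C step and 0 to 1 in the 46 °C step. In the 10 min difference 0 to 1 members were higher. Unequal pairs ranged from 3 to 4 at 37 °C 15 min, 9 to 10 at 42 °C 40 min, 1 to 3 at 46 °C 30 min, 0 to 1 and 9 to 10 in the 10 and 40 min differences, 2 to 3 in the 37 °C step and 8 to 9 in the 42 °C step. The arrays that moved a count by over 1.5 times were replicate 2 of 37 °C 10 min, replicates 1 and 2 of 42 °C 10 min, and replicate 2 of 46 °C 10 min and of 46 °C 30 min. With 1 array left in a group, that array is assumed to vary like the others.

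Replicate numbers did not pair the arrays in most groups. Residuals of same-numbered arrays correlated at −0.29 to 0.58 over 12 group pairs, and 2 of these had every value over 0.1. The highest, 0.58, was that of 46 °C 10 and 30 min, a step fitted without pairing in the main fit. With the replicate number as a block 44 members were lower and 10 pairs unequal at 42 °C 40 min, and no count moved by over 1.5 times. Crossed numbers at 42 °C 3 and 10 min, tried after seeing the data, moved none either. A random block for batch could not be fitted, since the group means take up the batch. Signals near the top of the scale and shared probe sets limit the size of the falls that can be read.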

Other observations

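The genes that encode ubiquitin fused to a ribosomal protein, picked after their values were seen, differed among themselves. RPL40A and RPL40B carry the same kind of fusion as RPS31 for a large subunit protein. At 42 °C 40 min RPS31 was at −0.51 ± 0.04, RPL40A at −1.47 ± 0.04 and RPL40B at −3.61 ± 0.06, while the polyubiquitin gene UBI4 was at 4.38 ± 0.08 (limma adjusted p = 2.62e-30). At 37 °C 15 min RPS31 and RPL40A were both at −0.07 and RPL40B at −0.61 ± 0.05.

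The 4 arrays of batch A961 fell into 2 kinds. The median over the small subunit genes was 14.48 and 11.32 on the arrays labelled 42 °C 1 min replicate 1 and 2, and 11.31 and 14.52 on those labelled 80 min replicate 1 and 2. HSP26 read 6.14, 15.15, 15.18 and 6.40 in the same order. For comparison, the members' median was 12.55 on replicate 2 of 42 °C 40 min.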
